A study of Gallus gallus with 15 samples.

Results

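SH3GL3 and SH3GL2 are paralogous genes that encode endophilins A3 and A1. They are described here in the hypothalamus of broiler chicks on the day of hatch (DOH), as 2 of the 24356 genes counted. Both were chosen because the study lists them as lower in chicks given green light in the last days of incubation than in dark-incubated chicks. Their values in that contrast are therefore given as a description, with no test. SH3GL3 is the row ENSGALG00000006045 of the deposited table, and SH3GL2 is ENSGALG00000015096, the identifier that the study's supplementary table pairs with this symbol. Both passed the filter on low counts, which kept 10475 genes.

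Broiler eggs were incubated under 4 lighting regimes: in darkness (Control), under white polychromatic light for the whole of incubation and hatching (White), under green monochromatic illumination (GMI) for the same period (Green), or under GMI in the last 3 days only (G3D). RNA of 1 hypothalamic hemisphere per chick was profiled by bulk MARS-Seq, which reads the 3′ ends of transcripts, in 4 Control, 4 White, 3 Green and 4 G3D chicks. Each chick gave 1 library, so the p-values measure the spread between chicks. All groups were broilers and were sampled at DOH, and no tray, trial or batch is given for the samples, so that the light and the tray cannot be told apart. The labels call the Control, White and Green chicks male and give no sex for G3D, while the study describes all of them as male.

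Endophilins A are cytosolic proteins with a curved BAR domain, which binds and bends membranes, and an SH3 domain, which recruits dynamin and synaptojanin. At nerve terminals they help to form and uncoat vesicles that are retrieved after transmitter release, and they also act in fast endocytosis of receptors. In mammals, SH3GL2 is expressed mainly in brain, SH3GL3 in brain and testis, and SH3GL1, which encodes endophilin A2, in most tissues. In chicken, SH3GL2 lies on the Z sex chromosome, which males carry in 2 copies.

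Total counts per library ranged from 3944530 to 9501555 (median 6731702). All 21 pairs of libraries within a group differed by more than counting error (chi-square divided by its degrees of freedom, 11.7 to 27.6). Of 19 listed hypothalamic markers 3 had an identifier. SST, which encodes somatostatin, was at 603.6 to 828.7 CPM (counts scaled to a fixed library size) in Control, 697 to 1063 CPM in White, 948 to 1003 CPM in Green and 1109 to 1320.1 CPM in G3D. SIX3, a transcription factor of the forebrain, was at 109 to 137 CPM in Control, 124 to 213 CPM in White, 187 to 231 CPM in Green and 189 to 238 CPM in G3D. Both were thus higher in every Green and G3D library than in every Control library. Of all genes tested, 4.9% were so in Green and 3.72% in G3D. AGRP was at 0 to 2.95 CPM in Control and 0 to 34.0 CPM in White. It was at 0.49 to 43.0 CPM in Green and 0.74 to 60.1 CPM in G3D, so that its ranges overlapped. All 3 are in the study's table of differential genes, and the part of the cell make-up in the endophilin levels was not tested. Of 10 neuronal markers only STMN2 had an identifier, at 1616 to 2425 CPM in Control, 1951 to 2909 CPM in White, 2038 to 2720 CPM in Green and 2157 to 3377 CPM in G3D. Glial, endothelial, blood and pituitary markers had none and were not analysed here. The sex of the G3D chicks was not checked by sex-linked genes, since the reference used gave no chromosome for the counted identifiers. In a search over all genes, 0 had at most 1 count in each of the 11 other libraries and over 5 CPM in a G3D library. The part of sex in the endophilin levels was not tested.

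SH3GL3 had its lowest level in G3D. Its 4 Control libraries were at 36.3, 44.6, 42.4 and 45.6 CPM (replicates 4, 5, 6 and 8), a mean of 42.2 ± 4.16 (SD, n = 4) CPM. The 4 White libraries were at 40.9, 36.9, 27.0 and 26.7 CPM (replicates 1, 3, 6 and 7), a mean of 32.9 ± 7.13 (SD, n = 4) CPM. The 3 Green libraries were at 40.7, 45.2 and 27.1 CPM (replicates 2, 7 and 9), a mean of 37.7 ± 9.39 (SD, n = 3) CPM. White and Green each spanned a wide range, from inside the Control range to well below it. The 4 G3D libraries were at 18.5, 25.9, 14.3 and 18.0 CPM (replicates 1, 5, 6 and 7), a mean of 19.2 ± 4.87 (SD, n = 4) CPM. Every G3D library thus lay below each of the 11 other libraries. Against 1 group at a time, this held for 4.04% of all genes tested for Control, 2.48% for Green and 5.43% for White. The share of genes below all 11 at once was not computed. The highest G3D library, replicate 5 at 25.9 CPM, was close to White replicate 7 at 26.7 CPM. The counts behind these levels were between 63 and 416 per library. The exact Poisson 95% interval of the lowest library, G3D replicate 6, was 11.01 to 18.3 CPM, and in G3D replicate 5 it was 22.5 to 29.7 CPM. These intervals cover counting error only.

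SH3GL2 had its highest level in White and its lowest in G3D. It was at 180.6, 165.9, 131.5 and 174.5 CPM in the 4 Control libraries, with a mean of 163.1 ± 21.9 (SD, n = 4) CPM. In White it was at 181.1, 232.8, 193.7 and 228.3 CPM, with a mean of 209.0 ± 25.5 (SD, n = 4) CPM. In Green it was at 128.8, 168.4 and 104.2 CPM, with a mean of 133.8 ± 32.4 (SD, n = 3) CPM. All 4 White libraries were above all Control and Green libraries, as in 1.38% and 5.79% of all genes tested. The margin of White replicate 1 over Control replicate 4 was narrow. In G3D it was at 90.2, 125.4, 84.4 and 107.2 CPM, with a mean of 101.8 ± 18.5 (SD, n = 4) CPM. The G3D libraries were below all Control and White libraries, as in 4.04% and 5.43% of all genes tested. They overlapped Green, where replicate 9 at 104.2 CPM lay under G3D replicates 5 and 7. SH3GL2 had between 371 and 1896 counts per library, so that its counting error was small beside the differences between chicks.

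**Figure D1:**
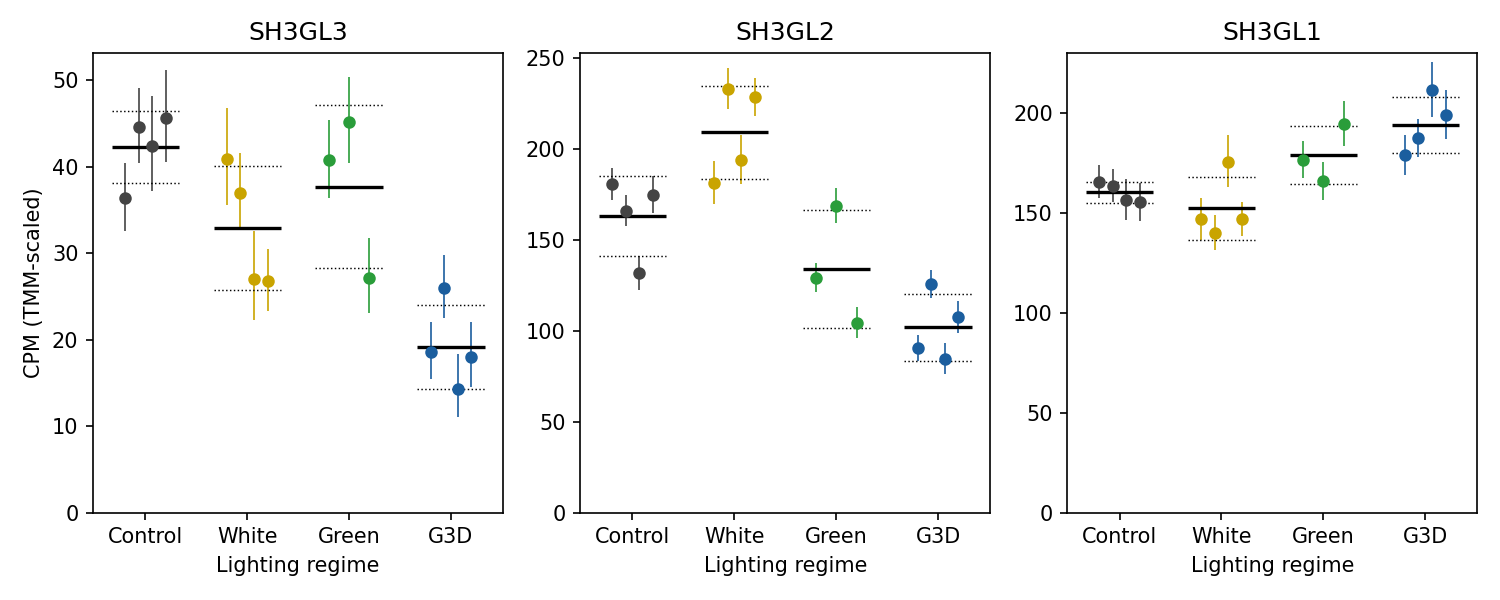
Levels of SH3GL3, SH3GL2 and SH3GL1 in CPM (TMM-scaled, y axis) for each library, by lighting regime (x axis). Points are libraries with exact Poisson 95% intervals of their counts, solid lines are group means and dotted lines the mean ± SD (4 libraries each in Control, White and G3D, 3 in Green). All G3D libraries lie below all Control libraries for SH3GL3 and SH3GL2 and above them for SH3GL1, and all White libraries lie above all Control libraries for SH3GL2.

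The order of the group means differed between the genes. For SH3GL3 it was Control, Green, White and G3D, and the ranges of Control, Green and White all overlapped each other. For SH3GL2 it was White, Control, Green and G3D, and here Control overlapped with Green and Green with G3D. The spread within groups was larger than counting error alone. The pooled SD within groups was 0.30 on the log2 CPM scale for SH3GL3, where counting alone gives 0.11, and 0.24 for SH3GL2, where counting gives 0.05. The median SD of the 501 genes nearest in level was 0.27 for SH3GL3 and 0.18 for SH3GL2. Depth varied with the levels to some extent. Within groups, Pearson's r with the log2 total count was 0.36 for SH3GL3, 0.62 for SH3GL2 and -0.59 for their paralog SH3GL1 over the 15 libraries, and the part of depth in the group differences was not tested. Without subtracting group means, r was 0.45, 0.25 and -0.32. The median total was lowest in White (5894074.5 counts), which had the highest mean of SH3GL2. It was next lowest in G3D (6198347 counts), which had the lowest mean of SH3GL2.

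In G3D against Control, the contrast that chose the genes, the log2 fold change was -1.13 (standard error 0.21) for SH3GL3, which is 54.2% lower, and -0.68 (standard error 0.16) for SH3GL2, which is 37.5% lower. The G3D libraries were below the Control libraries with no overlap in 4.04% of all genes tested, and as the genes were selected on this contrast nothing is read from their place among them. Without G3D replicate 5 the log2 fold changes were -1.31 and -0.80. Without G3D replicate 6 they were -1.02 and -0.60. Since tissue RNA was measured in bulk, fewer cells that express these genes and less of their RNA per cell cannot be told apart.

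The other comparisons with G3D share its libraries and are likewise given without a test. Against Green, the log2 fold change was -0.97 (standard error 0.22) for SH3GL3 and -0.39 (standard error 0.17) for SH3GL2. The value for SH3GL2 rested on single Green libraries: it was -0.19 without Green replicate 7 and -0.54 without Green replicate 9. Against White, the log2 fold change was -0.77 (standard error 0.21) for SH3GL3 and -1.04 (standard error 0.16) for SH3GL2. The difference was thus larger for SH3GL3 where G3D was set against Control or Green, and larger for SH3GL2 where it was set against White.

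Green against White compares light of different colour given for the same period, and it shares no library with the contrast that chose the genes. The edgeR fit estimates the spread from all 15 libraries, including those that chose the genes. Its p is therefore not wholly independent of the choice. SH3GL2 was lower in each Green library than in each White library, with a log2 fold change of -0.64 (standard error 0.17, 95% interval -0.99 to -0.29). The adjusted p from edgeR's quasi-likelihood test was 0.108 over all genes tested, so this difference did not pass the threshold of 0.05, which 0.22% of all genes passed. The unadjusted p was 0.00104, in rank 101 of 10475 genes. Of all genes, 14.1% had an unadjusted p under 0.05 in this comparison, 7.08% on the lower side, and 5.79% were lower in Green with no overlap. The two-sided exact permutation test gave p = 0.0571, which is the smallest p that 3 against 4 libraries allow. DESeq2 gave an adjusted p of 0.0219 for the same gene, and edgeR without the filter on low counts gave 0.0493, while limma-voom gave 0.0909. Fitted on the Green and White libraries only, edgeR gave an adjusted p of 0.134. With the replicate number as a block, edgeR gave a log2 fold change of -0.43, which rests on Green replicate 7 alone among the Green libraries. With any single library removed and no block, the log2 fold change stayed between -0.84 (without Green replicate 7) and -0.49 (without Green replicate 9). The edgeR adjusted p was then between 0.0699 and 0.474.

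SH3GL3 had a value above 0 between Green and White, with overlapping ranges. Its log2 fold change was 0.20 (standard error 0.22, 95% interval -0.25 to 0.65), with an edgeR adjusted p of 0.706 and an exact permutation p of 0.4 (two-sided). The interval reaches as far as 0.65 above and 0.25 below 0, so differences up to those sizes are not excluded by these libraries. Without Green replicate 7 the log2 fold change was 0.051 and without Green replicate 9 it was 0.39.

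White against Control compares white polychromatic light throughout incubation with darkness. The Control libraries of this comparison and of Green against Control were also used to choose the genes, for being higher than G3D. The choice therefore favours values below 0, and the p-values of both comparisons are not independent of it. All 16 pairs of a White and a Control library had more SH3GL2 in White, a log2 fold change of 0.36 (standard error 0.15, 95% interval 0.04 to 0.68). The adjusted p of edgeR's quasi-likelihood test was 0.913, although the unadjusted p was 0.0303 and the two-sided exact permutation test gave p = 0.0286, the smallest that 4 against 4 libraries allow. In this comparison 5.43% of all genes had an unadjusted p under 0.05 and 1.38% were higher in White with no overlap, and 0 genes passed the adjusted threshold in the edgeR fit. SH3GL3 pointed the other way. Only 2 of the 16 pairs had more SH3GL3 in White, with a log2 fold change of -0.36 (standard error 0.20, 95% interval -0.78 to 0.06), an edgeR adjusted p of 0.943 and an exact permutation p of 0.0857 (two-sided). The low level came from White replicates 6 and 7, and replicates 1 and 3 were inside the Control range. Without White replicate 7 the log2 fold change of SH3GL3 was -0.27 and without White replicate 1 it was -0.48.

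Green against Control gave values below 0 for both genes, and neither passed the test. The log2 fold change was -0.16 (standard error 0.22, 95% interval -0.61 to 0.29) for SH3GL3, with an edgeR adjusted p of 0.889 and an exact permutation p of 0.457 (two-sided). For SH3GL2 it was -0.29 (standard error 0.17, 95% interval -0.63 to 0.06), with an edgeR adjusted p of 0.707 and an exact permutation p of 0.171 (two-sided). Here 7.16% of all genes had an unadjusted p under 0.05, and neither SH3GL3 nor SH3GL2 was among them (0 genes passed the adjusted threshold). Green replicate 9 held the lowest Green level of both genes and decided these values. Without it the log2 fold changes were 0.025 for SH3GL3 and -0.14 for SH3GL2, and without Green replicate 7, the highest for both, they were -0.31 and -0.48. White and Green share the Control libraries, so these comparisons are not independent of each other.

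**Figure D2:**
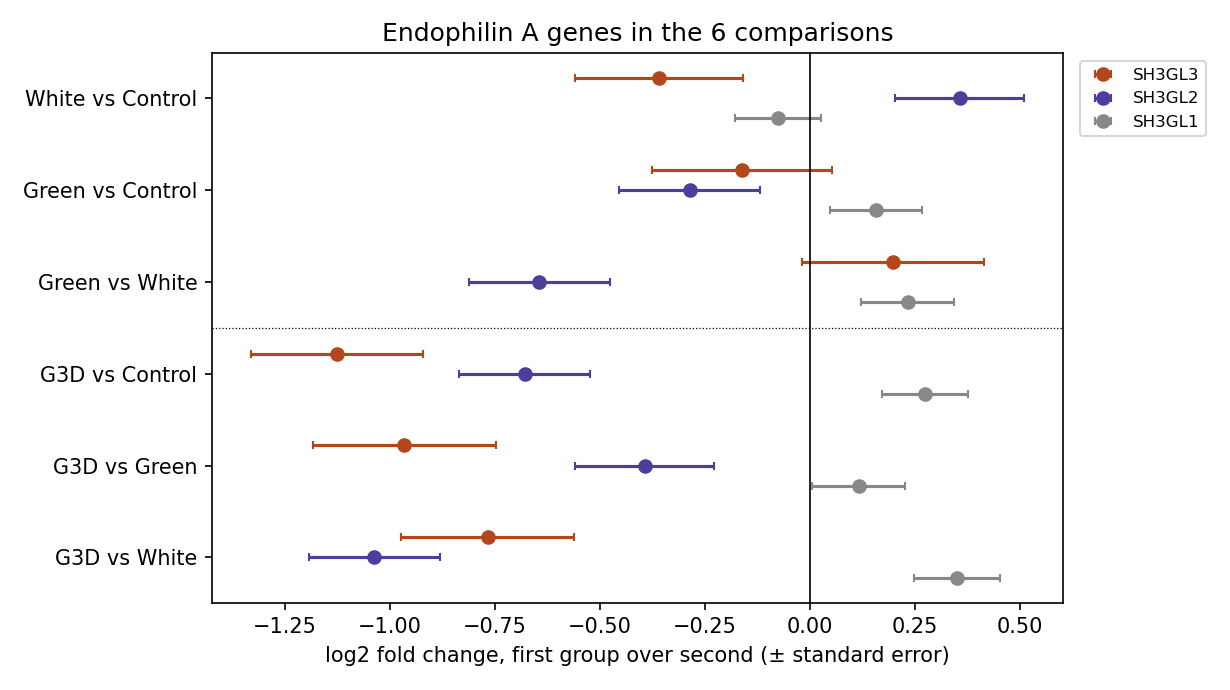
Log2 fold change (x axis, first group over second, with standard error) of SH3GL3, SH3GL2 and SH3GL1 in the 6 comparisons (y axis). The 3 comparisons above the dotted line leave out G3D. SH3GL2 is at 0.36 in White against Control and at -0.64 in Green against White, where SH3GL3 is at -0.36 and 0.20.

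The ratio of the genes within a library does not depend on how libraries are scaled. Reads were counted on the annotated 3′ end of each gene, and how fully these ends are annotated was not checked. The size of the ratio is therefore not read as the relative abundance of SH3GL3 and SH3GL2, and only its difference between groups is read. The log2 ratio of SH3GL3 to SH3GL2 was -2.30, -1.89, -1.63 and -1.93 in the Control libraries and -1.65, -1.89 and -1.93 in the Green libraries. It was -2.14, -2.65, -2.83 and -3.08 in the White libraries and -2.27, -2.26, -2.53 and -2.56 in the G3D libraries. Control and Green shared a range, White replicates 3, 6 and 7 were below every other library, and the G3D range reached Control only at replicate 4. Against Control, the mean log2 ratio of White was lower by 0.74, from -1.94 ± 0.28 (SD, n = 4) to -2.67 ± 0.40 (SD, n = 4). A two-sided exact permutation test gave p = 0.0571, and 0.0857 after Benjamini-Hochberg adjustment over the 3 comparisons without G3D. Green differed from White by 0.85 with no overlap (exact permutation p = 0.0571, the smallest possible, adjusted 0.0857) and from Control by 0.11 (exact permutation p = 0.743). Over the fits that left out 1 library, the difference of White from Control was between -0.92, without White replicate 1, and -0.60, without White replicate 7. Between G3D and Control the mean log2 ratio differed by -0.47, a description only.

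**Figure D3:**
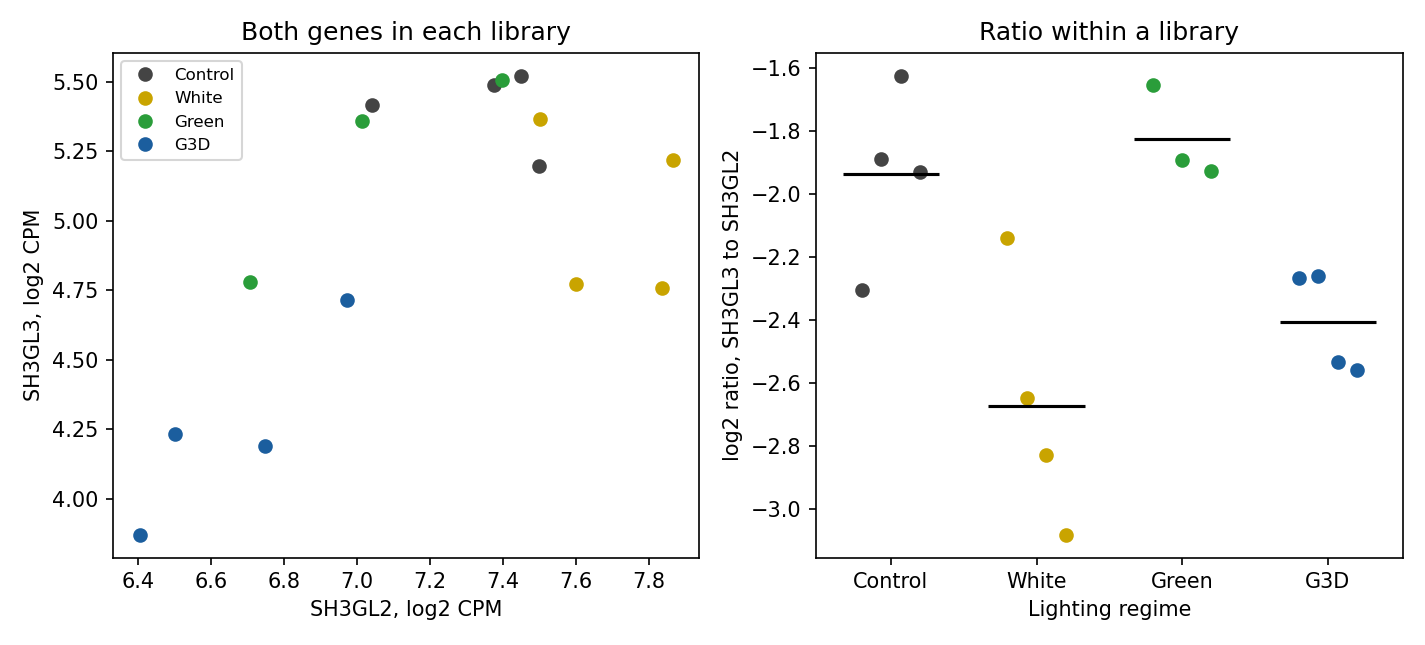
Left, log2 CPM of SH3GL3 (y axis) against SH3GL2 (x axis) in each of the 15 libraries. Right, the log2 ratio of SH3GL3 to SH3GL2 in each library by lighting regime, with group means as lines, at -1.94 in Control, -2.67 in White, -1.82 in Green and -2.40 in G3D.

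Across the 15 libraries, Pearson's r between log2 CPM of SH3GL3 and SH3GL2 was 0.64, and it was 0.51 after the group means were subtracted. In the list of all other genes ordered by likeness to SH3GL3, SH3GL2 took rank 348 of 10474, so that many genes varied more closely with SH3GL3 than its paralog did. These values describe libraries that share scaling and depth, and no p is given for them. SH3GL3 and SH3GL2 were both chosen for being lower in G3D than in Control, which favours a positive r over the 15 libraries. The genes with a symbol that were most like SH3GL2 were ATP2A2 (r = 0.96), the calcium pump of the endoplasmic reticulum, RAP1GDS1 (r = 0.96), an exchange factor for small GTPases, and GLRA2 (r = 0.96), a glycine receptor subunit. DYNLL2 (r = 0.95), a dynein light chain, and GNB1 (r = 0.95), a G-protein beta subunit, followed. Within groups their r with SH3GL2 was between 0.84 and 0.91. As genes picked for this likeness they share the order of its group means. RAP1GDS1, for example, had means of 71.3 CPM in Control, 97.9 CPM in White, 43.7 CPM in Green and 31.7 CPM in G3D.

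The genes with a symbol most like SH3GL3 were more loosely tied to it. They were ARID4A (r = 0.80), a chromatin protein, SLC25A4 (r = 0.79), the mitochondrial ADP/ATP carrier, WDSUB1 (r = 0.79), MAGT1 (r = 0.78), a subunit of the complex that attaches sugar chains to proteins, and KIAA0319 (r = 0.78). Within groups, r fell to 0.51 for SLC25A4 and stayed at 0.76 for WDSUB1. SLC25A4 had means of 44.3 CPM in Control, 36.1 CPM in White, 47.0 CPM in Green and 29.9 CPM in G3D, and so differed from SH3GL3 in having its highest mean in Green. None of the 5 genes most like SH3GL3 was among the 5 most like SH3GL2. Only genes in the study's table of differential genes have a symbol here. Of 10474 other genes, ATP2A2, RAP1GDS1, GLRA2 and DYNLL2 took ranks 1, 2, 3 and 4 in likeness to SH3GL2, and GNB1 took rank 7. ARID4A took rank 11 in likeness to SH3GL3, so that closer genes without a symbol exist for SH3GL3.

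Of the other endophilin genes on the list, SH3GL1 (ENSGALG00000001121) had an identifier, and SH3GLB1 and SH3GLB2, which encode the B-type endophilins, had none and were not analysed here. SH3GL1 had its highest level in G3D, where SH3GL3 and SH3GL2 had their lowest. Its Control libraries were at 165.5, 163.6, 156.6 and 155.3 CPM and its White libraries at 146.8, 139.9, 175.7 and 146.8 CPM. Its Green libraries were at 176.5, 165.8 and 194.5 CPM and its G3D libraries at 178.8, 187.3, 211.3 and 198.9 CPM. All G3D libraries were above all Control libraries (as in 3.72% of all genes tested). So were all Green libraries, although Green replicate 7 barely exceeded Control replicate 4, and G3D replicate 6, which was lowest for SH3GL3 and SH3GL2, was highest for SH3GL1. The study also lists SH3GL1 among the genes that differ in G3D, so its log2 fold change of 0.28 (standard error 0.10) against Control is a description. Green against Control gave 0.16 (standard error 0.11, edgeR adjusted p = 0.753, exact permutation p = 0.0571, two-sided), where 4.9% of all genes were higher in Green with no overlap. The Control libraries were also part of the choice of SH3GL1, which favours values above 0 in this comparison. These p-values are therefore not independent of that choice. Green against White gave 0.23 (standard error 0.11, 95% interval 0.00 to 0.46, edgeR adjusted p = 0.347). Pearson's r of SH3GL1 over the 15 libraries was -0.84 with SH3GL2 and -0.71 with SH3GL3, and within groups -0.44 and -0.69. The choice of genes that differ in G3D, on opposite sides, favours an r below 0 over the 15 libraries. SH3GL1 also had the opposite sign to both in its correlation with depth, and the part of depth in these values was not tested. In White against Control and Green against White its log2 fold changes (-0.08 and 0.23) had the sign of those of SH3GL3. The 95% interval of SH3GL3 included 0 in both comparisons, and that of SH3GL1 in White against Control. SH3GL1 had a pooled SD within groups of 0.11 on the log2 CPM scale, the smallest of these paralogs.

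Endophilins work with the coat, adaptor and fusion proteins of vesicles. Of 40 genes listed for clathrin-mediated endocytosis 7 had an identifier, of 36 for exocytosis 2, and of 18 for binding partners of endophilin 0, which leaves dynamin and synaptojanin not analysed here. All 9 are genes that the study lists as different in G3D, so their direction there was fixed by selection. In G3D, 7 of the 9 were below Control in mean level and 2 above, with a median log2 fold change of -0.61 against -0.01 over all genes tested, of which 51% were below 0. The study lists more lower than higher genes in G3D, so any genes that could be named here lean below 0. The excess over all genes is therefore not read as a trait of vesicle genes. The lower genes included CLTC, the clathrin heavy chain, at -0.61 (standard error 0.18), CLTA, a clathrin light chain, at -0.41 (standard error 0.12) and AP2A2, an adaptor subunit, at -1.17 (standard error 0.45). EPS15, a scaffold of coated pits, was at -0.81 (standard error 0.26), and NAPG, which helps to take apart SNARE complexes after fusion, at -1.25 (standard error 0.36). CLTB, the other clathrin light chain, was at 0.29 (standard error 0.09) and AP2M1, the adaptor subunit that binds cargo, at 0.34 (standard error 0.11). The coat and adaptor subunits thus did not all lie on the same side.

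The comparisons that leave out G3D still concern genes that were selected for differing in G3D, so that the shares over all genes are given beside them as a scale and nothing particular to these genes is read. Green against White had 7 of the 9 below 0, with a median log2 fold change of -0.50 against -0.01 over all genes, of which 51.1% were below 0. None had an adjusted p under 0.05 in edgeR's quasi-likelihood test (0 of 9, with 4 at an unadjusted p under 0.05, all lower, where 14.1% of all genes were under it and 7.08% lower). DESeq2 called 1 of them, AP2A2, where it called 201 of 8590 genes. In limma-voom 0 of them were called, where 21 of 10475 genes were. AP2A2 was at 9.71, 16.8 and 7.85 CPM in Green and at 15.5, 52.3, 32.6 and 38.7 CPM in White, on the log2 scale -1.60 (standard error 0.49, edgeR adjusted p = 0.177). The ranges overlapped, since White replicate 1 was below Green replicate 7. CLTC was at 145.3, 128.2 and 102.8 CPM in Green and at 125.8, 232.5, 189.3 and 205.5 CPM in White, on the log2 scale -0.59 (standard error 0.20, edgeR adjusted p = 0.199). EPS15 and NAPG were lower in each Green library than in each White library (as in 5.79% of all genes), with log2 fold changes of -0.83 and -1.17 (edgeR adjusted p = 0.212 and 0.192). For NAPG the margin was narrow, with Green replicate 9 at 6.66 CPM (39 counts) and White replicate 6 at 6.82 CPM (28 counts). On the other side of 0 were CLTB, at 0.20 (standard error 0.10), and AP2M1, at 0.06 (standard error 0.12). SH3GL2 thus had the sign of the 7 lower genes and SH3GL3 that of CLTB and AP2M1.

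The Control libraries were part of the selection of these genes, which favours values on the side they have in G3D. Against Control, Green had 7 of the 9 genes below 0 (median -0.35) and White 1 of 9 (median 0.15), where 51.6% and 49% of all genes tested were below 0. None passed the adjusted threshold in edgeR, DESeq2 or limma-voom (0 of 9 in each). At an unadjusted p under 0.05 edgeR had 4 genes in Green and 1 in White, where 7.16% and 5.43% of all genes were under it. In Green these were CLTB at 0.24 (standard error 0.10) and, lower, CLTA at -0.35 (standard error 0.13), NAPG at -0.86 (standard error 0.38) and AP2A2 at -1.06 (standard error 0.48), with edgeR adjusted p-values between 0.609 and 0.682. In White it was CLTA at -0.26 (standard error 0.12, edgeR adjusted p = 0.913), the only 1 of the 9 below Control in that group. CLTA was at 818.1, 914.3, 1165 and 1020 CPM in Control and at 687.2, 959.4, 691.4 and 923.4 CPM in White, so that these ranges overlapped.

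**Figure D4:**
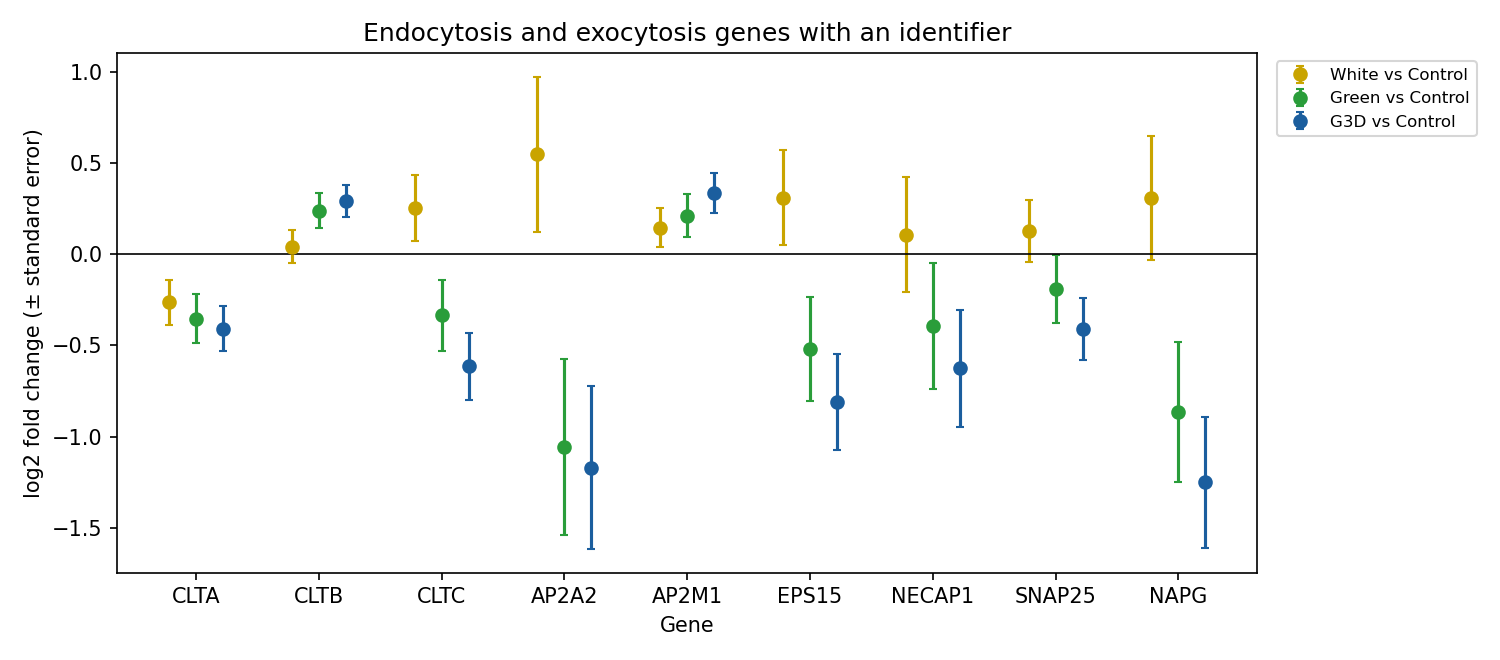
Log2 fold change against Control (y axis, with standard error) of the 9 endocytosis and exocytosis genes that have an identifier (x axis), in White, Green and G3D. The 3 comparisons share the Control libraries. In White 8 of the 9 genes lie above 0, and in Green and G3D 7 of the 9 lie below 0, with CLTB and AP2M1 above.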

How the data were processed

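Bulk MARS-Seq of chick hypothalamus gave 15 libraries. According to the methods, the authors trimmed adapters with Cutadapt, mapped reads with STAR onto annotated transcript ends of the Galgal 6.0 assembly, flagged duplicates by gene and UMI, and counted reads with HTSeq-count. How reads that match several genes were handled is not given in the sources used here. The deposited values are raw counts per Ensembl gene. All deposited columns were used, with groups taken from the labels.

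The count table was fitted with edgeR 4.0.16 (R 4.3.3): filterByExpr (10475 genes kept), TMM scaling, and a quasi-likelihood fit with robust shrinkage on all libraries, with Benjamini-Hochberg adjustment over all genes and a threshold of 0.05. CPM are TMM-scaled, except those of cell markers, which use library totals. Single genes and ratios were also compared by two-sided exact permutation tests of log2 CPM (prior count 2). The code was tested on simulated data. The same results were computed with limma-voom (limma 3.58.1), DESeq2 1.42.0, other scalings and filters, 2-group fits, a replicate block and each library left out.

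The genes, lists and tests were chosen with earlier results of these data known. Named were the endophilin genes, the listed vesicle genes with the smallest p in each comparison (up to 4 per direction, 5 for G3D), and the 5 genes with a symbol most correlated with each of SH3GL3 and SH3GL2. Symbols come from the study's supplementary table, which pairs 568 identifiers. The reference gene table is of another assembly and holds no Ensembl identifiers, so no coordinates are given, and a planned comparison of Z-linked genes was not made.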

Additional observations from a re-analysis of the deposited data

How the results depend on the processing

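SH3GL2 in Green against White passed the adjusted threshold with DESeq2 (log2 fold change -0.66, adjusted p = 0.0219) and with all genes that have a count (-0.64, adjusted p = 0.0493). In edgeR it did not pass with DESeq2 size factors (adjusted p = 0.101), upper-quartile scaling (0.111) or at least 10 counts in every library (0.103). Nor did it pass in edgeR without robust shrinkage (0.126) or with only the 2 groups compared (0.134). The number of genes called in this comparison was 23, against 201 with DESeq2, 67 with all genes that have a count, 3 with the replicate block and, with 1 library left out, between 2 (without White replicate 3 or 7 or Green replicate 9) and 40 (without White replicate 1). Same-numbered libraries did not deviate together (r between -0.10 and 0.12 over 8 pairs), and the labels tie the numbers to no litter or day. With the replicate block the sign turned for Green against Control in SH3GL3 (0.26), SH3GL2 (0.14) and AP2A2 (0.61) and for White against Control in SH3GL1 (0.034), and SH3GL3 in G3D against Green was at -1.44. The block also gave 0.65 for SH3GL3 in Green against White, 0.58 for SH3GL2 in White against Control and, in G3D against Control, 0.15 for AP2M1 and -0.20 for AP2A2. SH3GL2 in Green against White was at -0.43 with it. Replicate numbers 2 and 9 occur only in Green, so with the block each value for Green rests on Green replicate 7 alone. Numbers 4 and 8 occur only in Control and 3 only in White, and those libraries likewise do not inform the block values. No other cause was tested. With 1 library left out, SH3GL3 in Green against Control ranged from -0.31 to 0.025, and in Green against White from 0.051 (without Green replicate 7) to 0.39. The ratio of SH3GL3 to SH3GL2 differed by -0.010 to 0.22 in Green against Control and by -0.92 to -0.60 in White against Control, where the exact permutation p was at lowest 0.0571. NAPG had no value with at least 10 counts required in every library. For SH3GL3, between 63 and 416 counts per library limit the precision.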

Other observations

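The log2 ratio of SH3GL2 to SH3GL1 within a library, which no comparison above uses, was between -0.25 and 0.17 in the 4 Control libraries, between 0.14 and 0.73 in the 4 White libraries, between -0.90 and 0.02 in the 3 Green libraries and from -1.32 to -0.58 in the 4 of G3D. The ratio of SH3GL3 to SH3GL1 was between -2.18 and -1.76 in Control, between -2.69 and -1.84 in White, between -2.83 and -1.87 in Green and between -3.85 and -2.84 in G3D. The study lists these genes as different in G3D, where SH3GL1 was higher and SH3GL3 and SH3GL2 lower than in Control. The low place of G3D in both ratios was thus favoured by the choice of genes and is a description only. The 10 most abundant genes took between 24.2% and 27.5% of the counts in Control, between 21.5% and 24.0% in White, between 21.4% and 25.3% in Green, and between 21.97% and 24.2% in G3D except for replicate 6 at 15.5%, and the part of this share in the levels of the endophilin genes was not tested.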
